A study of Mus musculus with 12 samples.

Results

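The STAT and JAK families were followed across mammary tissue of mice with deletions in 2 of their members, Stat5a and Stat5b. The members were 9 genes with annotated probe sets: Stat2, Stat3, Stat4, Stat5a, Stat5b, Stat6, Jak1, Jak2 and Tyk2. All probe sets that the platform's annotation gives to 1 of these symbols were taken, which gave 20 probe sets for 9 genes, out of 45037 probe sets and 18194 genes in all. A filter on low signal (a mean over the 12 arrays at or above the 30th percentile, a log2 signal of 6.04) was passed by 19 of the 20, and by 31526 probe sets in all. The study took mammary tissue 6 days after a mating plug, in early pregnancy, from 3 mice of each of 4 genotypes and hybridized it to Affymetrix arrays. Mice labelled Stat5a-/- had 0 intact Stat5a alleles and 2 of Stat5b, and Stat5ab+/null mice had 1 of each. Mice labelled Stat5abnull/Stat5a-, called single-Stat5b below, kept 1 Stat5b allele and 0 of Stat5a, and those labelled Stat5abnull/Stat5b-, called single-Stat5a, kept 1 Stat5a allele and 0 of Stat5b. All 4 groups were mutant and shared a mix of C57BL/6, FVB and 129 strains, and the ages of the mice were not given in the labels. The treatment text of the labels describes Mx1-Cre, a Cre driven by an interferon-responsive promoter, switched on by injected PolyIC. No Cre stands in the genotype labels, so whether these mice carried it is not settled. The sample descriptions speak of sorted cells, whereas the series design gives mammary tissue. Means over the defining markers of that tissue lay above the filter level on all 12 arrays, at log2 signals of 10.88 to 12.74 for 7 luminal epithelial genes, 11.69 to 12.35 for 5 basal genes and 12.53 to 13.80 for 4 adipocyte genes. The luminal gene Cldn4 averaged near the filter level in single-Stat5b, at 6.06, and below it in single-Stat5a, at 5.46. It averaged 10.92 on the arrays labelled Stat5a-/- and 11.03 on the Stat5ab+/null arrays.

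Cytokines and hormones such as prolactin, growth hormone and interleukins bind receptors that have no kinase of their own and rely on Janus kinases (JAKs) held on their cytoplasmic tails. The activated JAK phosphorylates the receptor and then STAT proteins, which pair, enter the nucleus and bind DNA as transcription factors. In mammary epithelium prolactin acts through Jak2 and Stat5 to drive the growth of alveoli in pregnancy, Stat6 serves the luminal response to interleukins, and Stat3 directs cell death and remodelling after weaning. The arrays read transcript level only, and no value below describes phosphorylation or protein.

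Values are log2 signals per probe set, so a difference of 1 is a doubling. Each within-set difference comes from limma, a linear model with 1 mean per genotype and 1 spread shared by the 12 arrays, with p-values adjusted by Benjamini-Hochberg over all 31526 probe sets and a call at an adjusted p under 0.05. Intervals are 95% intervals of the same fit, and the number of arrays limits their precision. By their correlation the arrays formed 2 sets, 1 for each allele total. Pearson r over probe sets, which are not independent of each other, was 0.957 to 0.993 between arrays of 1 genotype, 0.949 to 0.994 between genotypes of the same allele total, and 0.818 to 0.883 between the sets. The signal at the 3' end minus that at the 5' end of the actin control, a measure of RNA integrity and labelling length, was 2.16 to 3.78 on the single-allele arrays and 0.13 to 0.27 on the 2-allele arrays. Comparisons were therefore made within each set, and levels in both sets are only given side by side. Allele total and array set cannot be told apart. In whole tissue, fewer cells of a type and less RNA per cell cannot be told apart either.

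Stat5a and Stat5b, the targeted genes, lie next to each other on chromosome 11, with Stat3 as the next gene beyond Stat5a. They arose as a duplicated pair and encode closely related proteins. Their RefSeq promoter windows (GRCm38.p6, 250 bases before to 50 after an annotated start) are shown since these are the genes that carry the deletions and the windows of the pair still share sequence. Each gene had more than 1 annotated start. The pair shown gave the highest-scoring local alignment, and the aligned stretch is printed in capitals: 104 aligned columns of which 83 were identical, 17 mismatched and 4 gaps (79.8% identical). The Stat5a window is chr11:100860234-100860533 on the plus strand and the Stat5b window is chr11:100822521-100822820 on the minus strand.
Stat5a: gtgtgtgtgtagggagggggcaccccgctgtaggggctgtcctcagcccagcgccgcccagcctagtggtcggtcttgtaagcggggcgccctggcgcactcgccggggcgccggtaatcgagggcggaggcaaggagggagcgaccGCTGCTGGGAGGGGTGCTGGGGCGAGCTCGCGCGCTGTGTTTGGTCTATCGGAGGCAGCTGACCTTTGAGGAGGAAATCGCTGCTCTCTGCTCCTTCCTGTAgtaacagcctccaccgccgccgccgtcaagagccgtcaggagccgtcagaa
Stat5b: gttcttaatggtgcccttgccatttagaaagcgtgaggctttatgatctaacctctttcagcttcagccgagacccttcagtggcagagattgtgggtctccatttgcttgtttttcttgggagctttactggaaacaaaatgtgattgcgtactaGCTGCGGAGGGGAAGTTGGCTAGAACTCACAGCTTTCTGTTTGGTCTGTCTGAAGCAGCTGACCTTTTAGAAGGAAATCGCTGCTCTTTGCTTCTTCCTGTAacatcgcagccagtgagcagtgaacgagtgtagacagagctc
The shared stretch ran from base -103 to -2 of the Stat5a start and from -94 to 8 of the Stat5b start, counted from the start base as 1. Over their full length the windows shown had 67.7% GC and 27 CpG pairs for Stat5a and 47.3% GC and 7 CpG pairs for Stat5b. In the other annotated window of each gene these were 57.7% and 5 for Stat5a and 82.7% and 50 for Stat5b. The sources used here do not give the probes' positions relative to the deleted parts.

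The Stat5a probe set 1421469_a_at gave log2 signals of 10.40, 10.40 and 10.10 on the arrays labelled Stat5a-/- and of 9.89, 9.77 and 10.08 on the Stat5ab+/null arrays. All 3 arrays labelled as lacking Stat5a thus lay above all 3 arrays with 1 Stat5a allele, the lowest of them by 0.02. The difference was 0.39 (95% interval -0.04 to 0.81, limma adjusted p = 1.00). The other Stat5a probe set (1450259_a_at) read 9.17, 9.10 and 8.55 in labelled Stat5a-/- mice and 8.63, 7.91 and 8.58 in Stat5ab+/null mice, a difference of 0.56 (0.03 to 1.10) that did not pass (limma adjusted p = 1.00). Its groups overlapped. For Stat5b the order was turned: 1422103_a_at read 9.63, 9.63 and 9.51 on the arrays labelled Stat5a-/-, with 2 Stat5b alleles, and 9.98, 9.85 and 9.87 on the Stat5ab+/null arrays, with 1. Probe set 1422102_a_at read 8.38, 8.23 and 8.21 against 8.49, 8.37 and 8.72. Their differences were -0.31 (-0.71 to 0.09) and -0.25 (-0.62 to 0.11), and neither passed. All 4 differences are opposite to what the labelled alleles give, and the group is called the arrays labelled Stat5a-/- throughout. Whether these probes lie inside the deleted parts is not known here, and the cause of this order was not tested. The sample titles hold the letters ABB for these arrays and AAB for the Stat5ab+/null arrays, and their meaning is not given.

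Between the single-allele genotypes 1 Stat5a probe set was called, in the direction of the labelled alleles. Probe set 1421469_a_at read 10.98, 11.09 and 10.87 in single-Stat5b mice, which keep no intact Stat5a, and 12.48, 12.33 and 11.83 in single-Stat5a mice. The groups were apart by 0.74 at their nearest, and Stat5a fell by 1.23 on the log2 scale in single-Stat5b (95% interval -1.65 to -0.81, SE 0.20, limma adjusted p = 0.00251). Of the 19 member probe sets tested it was the only one that passed in this comparison, in which 2.89% of all probe sets passed. It passed under every alternative run, at -1.42 to -1.10 with adjusted p up to 0.0472. The other Stat5a probe set, 1450259_a_at, lay below the filter level on all arrays of both groups, at 4.98, 5.05 and 5.14 in single-Stat5b and 5.65, 5.30 and 4.94 in single-Stat5a. It differed by -0.24 (-0.78 to 0.30) and did not pass. Stat5b ran the other way: 1422102_a_at read 6.79, 6.62 and 6.95 in single-Stat5b and 6.19, 6.26 and 5.99 in single-Stat5a. Its single-Stat5a values lay near the filter level of 6.04, with replicate 3 below it. These groups did not overlap, and the difference of 0.64 (0.28 to 1.00) missed the threshold (limma adjusted p = 0.0671). It passed without single-Stat5b replicate 2 (0.72, adjusted p = 0.0332) and with no moderation of the variance (0.64, adjusted p = 0.0396). The other Stat5b probe set, 1422103_a_at, read 9.65, 9.36 and 9.89 in single-Stat5b and 9.33, 9.72 and 9.26 in single-Stat5a, with a difference of 0.20 (-0.20 to 0.60) and overlapping groups.

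Marker levels differed beside the Stat5a call. The mean of 6 skeletal muscle markers ranged from 7.61 to 10.59 in single-Stat5b and from 9.76 to 13.74 in single-Stat5a, and all 6 were lower in single-Stat5b, none of them called. The mean of 4 endothelial markers was 9.09 to 9.34 in single-Stat5b and 9.69 to 9.75 in single-Stat5a. The mean of 7 luminal markers, the cells in which Stat5a is best known to act, was 11.09 to 11.99 in single-Stat5b and 10.88 to 11.38 in single-Stat5a. With the B cell and muscle means of each array as covariates, the Stat5a difference was -1.19 (limma adjusted p = 0.0264). The mean of 4 adipocyte markers was 12.53 to 12.89 in single-Stat5b and 13.00 to 13.37 in single-Stat5a, also without overlap. The part of the endothelial, adipocyte and luminal levels was not tested. In the same arrays the actin 3' minus 5' signal was 2.16 to 3.78 in single-Stat5b and 2.16 to 3.07 in single-Stat5a.

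Both comparisons swap Stat5a alleles for Stat5b alleles, once at a total of 2 and once at 1, and their difference was tested directly. For Stat5a 1421469_a_at, single-Stat5b minus single-Stat5a was -1.23 and labelled Stat5a-/- minus Stat5ab+/null was 0.39. The difference of these was -1.62 (-2.21 to -1.02, limma adjusted p = 0.00980), the only called member among 19, where 1.09% of all probe sets passed. This call was lost with the B cell and muscle covariates (-1.47, adjusted p = 0.131) and with 4 arrays left out together (-1.65, adjusted p = 0.101). These were labelled Stat5a-/- replicate 3 and replicate 2 of each other genotype. It rests on the labels of the 2-allele pair, which all 4 Stat5 probe sets ran against. With the labels of that pair exchanged, an alternative chosen after seeing the data, the value was -0.85 and did not pass (limma adjusted p = 0.267). For the other Stat5a probe set the difference was -0.81 (adjusted p = 0.611), with all 6 single-allele values, 4.94 to 5.65, below the filter level of 6.04, and for Stat5b it was 0.89 (1422102_a_at, adjusted p = 0.137) and 0.51 (1422103_a_at, adjusted p = 0.769).

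**Figure D1:**
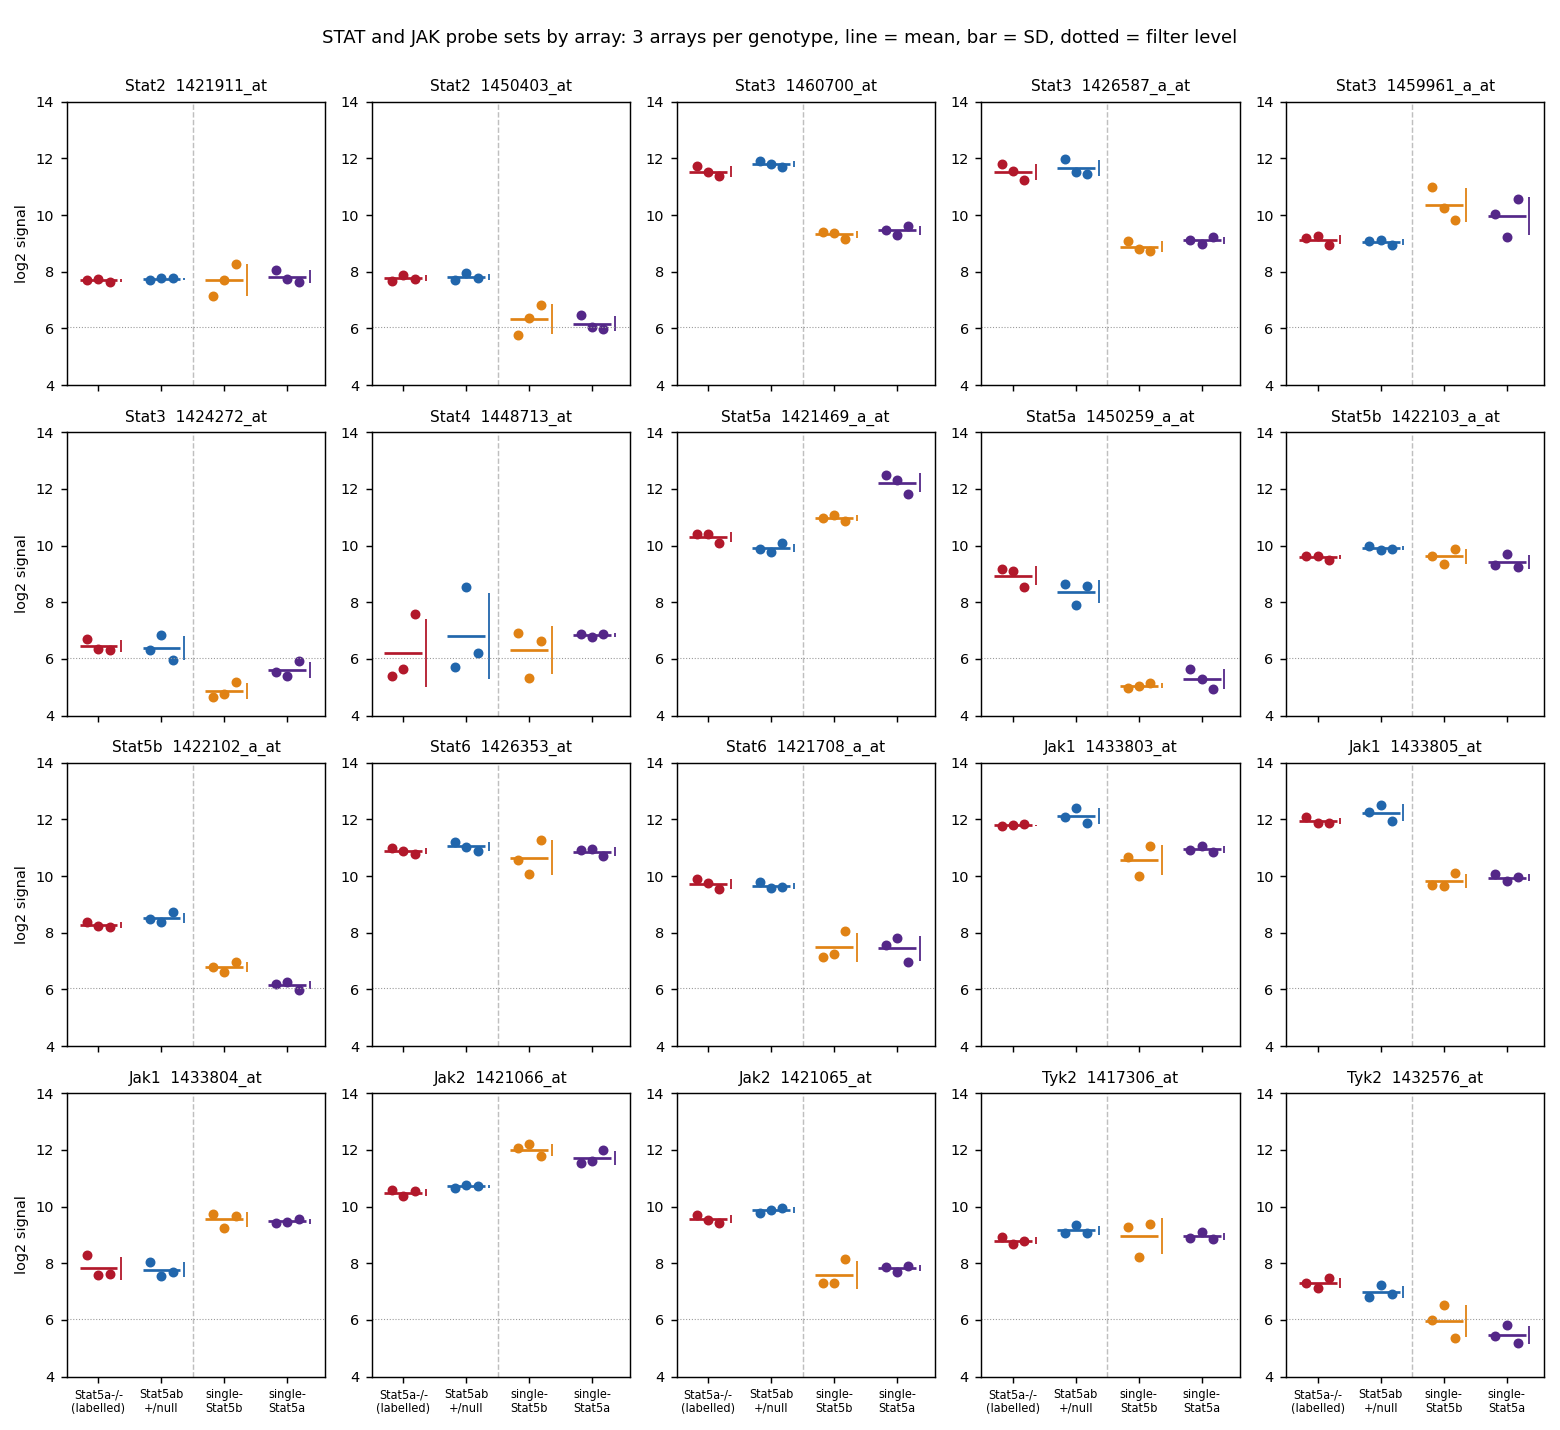
Log2 signal (vertical axis, 4 to 14 in each panel) of all 20 STAT and JAK probe sets on the 12 arrays, 1 panel per probe set, with 1 point per array, a line at the group mean, a bar for the SD (n = 3) and a dotted line at the filter level of 6.04. The dashed line parts the 2-allele arrays (left) from the single-allele arrays (right). Stat5a 1421469_a_at is highest in single-Stat5a, at 11.83 to 12.48. Of the 19 probe sets past the filter, 10 are lower and 3 higher on all single-allele arrays than on all 2-allele arrays. The 10 include Stat5a 1450259_a_at and Tyk2 1432576_at, which passed the filter only through the 2-allele arrays. Over all probe sets the shares are 25.8% and 28.1%.

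Stat3, which carries interleukin-6-type signals and lies beside the deleted genes, had 3 probe sets past the filter, and none passed in either set. Probe set 1460700_at read 11.72, 11.53 and 11.36 on the arrays labelled Stat5a-/- and 11.92, 11.79 and 11.70 on the Stat5ab+/null arrays. In the other set it read 9.41, 9.38 and 9.17 in single-Stat5b and 9.47, 9.30 and 9.63 in single-Stat5a. Groups overlapped in both comparisons, and the differences were -0.26 (-0.63 to 0.10) and -0.14 (-0.51 to 0.22). Probe set 1426587_a_at averaged 11.52 ± 0.28 in labelled Stat5a-/- and 11.65 ± 0.28 in Stat5ab+/null (SD, n = 3 each), and 8.88 ± 0.19 in single-Stat5b and 9.11 ± 0.12 in single-Stat5a. The third, 1459961_a_at, averaged 9.14 ± 0.16 and 9.05 ± 0.09 in the same first pair, and 10.36 ± 0.59 in single-Stat5b and 9.96 ± 0.68 in single-Stat5a. None of these differences passed (limma adjusted p of 0.738 or more). The fourth, 1424272_at, lay below the filter and was not tested. It read 4.64, 4.76 and 5.19 in single-Stat5b and 5.54, 5.38 and 5.92 in single-Stat5a, without overlap.

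Stat6, the factor of interleukin-4 and interleukin-13 signals, did not pass between genotypes of the same allele total. Probe set 1426353_at averaged 10.88 ± 0.11 on the arrays labelled Stat5a-/- and 11.05 ± 0.17 on the Stat5ab+/null arrays, a difference of -0.17 (-0.72 to 0.38). It read 10.58, 10.06 and 11.29 in single-Stat5b, the widest spread of its 4 groups, and 10.93, 10.97 and 10.69 in single-Stat5a. That difference was -0.22 (-0.78 to 0.33), and it was 0.12 with the 4 arrays named above left out. Probe set 1421708_a_at averaged 9.73 ± 0.18 in labelled Stat5a-/- and 9.65 ± 0.12 in Stat5ab+/null, while single-Stat5b had 7.48 ± 0.51 and single-Stat5a had 7.45 ± 0.44. It differed by 0.08 (-0.50 to 0.65) in the first comparison and by 0.03 (-0.55 to 0.61) in the second.

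Stat2, which with a partner STAT and Irf9 forms the complex that answers type I interferons, varied little within the 2-allele set. Probe set 1421911_at read 7.70, 7.75 and 7.63 in labelled Stat5a-/- mice and 7.71, 7.78 and 7.78 in Stat5ab+/null mice, a difference of -0.06 (-0.59 to 0.47). In single-Stat5b it ran from 7.13 over 7.71 to 8.28, and in single-Stat5a from 7.64 over 7.75 to 8.08. The second Stat2 probe set, 1450403_at, differed by -0.04 (-0.57 to 0.49) and by 0.15 (-0.38 to 0.67). Its values moved with those of the first (r = 0.91 over 12 arrays after each set's mean was subtracted, a description of arrays that share genotypes). The Stat2 promoter window was searched, with the windows of the other members, for letters that STAT complexes are known to bind, on both strands. The letters TTCNNNGAA, a Stat5-type site, were in 0 of 12 member windows and in 8.30% of all 32851 windows, and TTCNNNNGAA, a Stat6-type site, was in 1 member window, that of Stat2, and in 6.95% of all. The letters GAAANNGAAA, of interferon response elements, were in 2 member windows, of Stat2 and Stat4, and in 3.44% of all. The Stat2 matches lie next to each other in this stretch, at chr10:128270276-128270297 on the plus strand (GRCm38.p6, RefSeq), bases -222 to -201, with the letters of the matches in capitals.
Stat2: TTTCAGTTTCctTTCCCTAGAA
The first capitals read as the interferon response letters on the opposite strand, and the second as the Stat6-type letters. A match is a run of letters and not a site of binding, and binding was not measured.

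Jak2, the kinase of the prolactin and growth hormone receptors, had probe sets that differed more between the array sets than between genotypes of the same allele total. Probe set 1421066_at read 10.58, 10.36 and 10.54 on the arrays labelled Stat5a-/- and 10.66, 10.75 and 10.74 on the Stat5ab+/null arrays. It read 12.06, 12.20 and 11.78 in single-Stat5b and 11.54, 11.61 and 11.99 in single-Stat5a. The first pair did not overlap and the second did, with differences of -0.22 (-0.61 to 0.17) and 0.30 (-0.09 to 0.68). Probe set 1421065_at read 9.71, 9.52 and 9.44 in labelled Stat5a-/- mice and 9.78, 9.89 and 9.96 in Stat5ab+/null mice, again without overlap. It read 7.30, 7.30 and 8.16 in single-Stat5b and 7.88, 7.71 and 7.89 in single-Stat5a. Its differences were -0.32 (-0.80 to 0.16) and -0.24 (-0.72 to 0.24). None of the 4 passed (limma adjusted p of 0.603 or more). Within the sets the probe sets did not move together (r = -0.26 over 12 arrays after each set's mean was subtracted).

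Jak1, which serves interferon and interleukin receptors, was read from 3 probe sets, and none passed. Probe set 1433803_at read 11.77, 11.79 and 11.82 in labelled Stat5a-/- mice and 12.09, 12.41 and 11.86 in Stat5ab+/null mice. These groups did not overlap, by 0.04 at their nearest, and differed by -0.33 (-0.85 to 0.19). It read 10.69, 9.99 and 11.05 in single-Stat5b and 10.91, 11.07 and 10.85 in single-Stat5a, an overlapping pair that differed by -0.36 (-0.89 to 0.16). Probe set 1433805_at differed by -0.30 (-0.72 to 0.12) and -0.14 (-0.55 to 0.28), and 1433804_at by 0.06 (-0.43 to 0.55) and 0.07 (-0.42 to 0.56). Tyk2, the kinase of the interferon and interleukin-12 receptors, was read from 1417306_at at 8.92, 8.67 and 8.80 in labelled Stat5a-/- mice and 9.06, 9.35 and 9.08 in Stat5ab+/null mice. That pair did not overlap and differed by -0.37 (-0.93 to 0.20). The same probe set read 9.26, 8.23 and 9.39 in single-Stat5b, where replicate 2 stood apart, and 8.89, 9.09 and 8.86 in single-Stat5a, a difference of 0.01 (-0.55 to 0.58). The other Tyk2 probe set, 1432576_at, ran against it in the first comparison, with a difference of 0.31 (-0.28 to 0.89), and not in the second, with 0.48 (-0.10 to 1.07). Within the sets the values of the Tyk2 probe sets were opposed (r = -0.49 over 12 arrays after each set's mean was subtracted). On the single-Stat5a arrays 1432576_at read 5.42, 5.82 and 5.18, all below the filter level. In single-Stat5b it read 5.99, 6.52 and 5.37, with only replicate 2 above that level. No JAK probe set passed in either comparison (limma adjusted p of 0.553 or more).

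Over the families, 0 of 19 probe sets passed between labelled Stat5a-/- and Stat5ab+/null, where 3 of 31526 passed (0.00952%). At an unadjusted limma p under 0.05 there was 1 member, Stat5a 1450259_a_at, and 2.84% of all probe sets. Of the members, 6 lay above 0 and 13 below, with a median difference of -0.17, against -0.05 over all probe sets, of which 38.6% lay above 0. In this comparison 1 member was higher without overlap, Stat5a, and 5 were lower, from Stat5b, Jak1, both Jak2 probe sets and Tyk2, and 17.5% of all probe sets did not overlap in either direction. Between single-Stat5b and single-Stat5a, 9 members lay above 0 and 10 below, with a median of -0.11, against -0.00 over all. Only Stat5b 1422102_a_at was higher and Stat5a 1421469_a_at lower without overlap among the 19, and 11.5% of all probe sets did not overlap. An adjusted p of 1.00 does not show that levels were alike. The intervals give the differences left unresolved by this fit, whose spread is shared by both array sets. For Stat2 1421911_at the SD was 0.06 in labelled Stat5a-/- and 0.04 in Stat5ab+/null, and 0.57 in single-Stat5b and 0.23 in single-Stat5a. Its interval in the first comparison thus also holds the spread of the single-allele arrays.

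**Figure D2:**
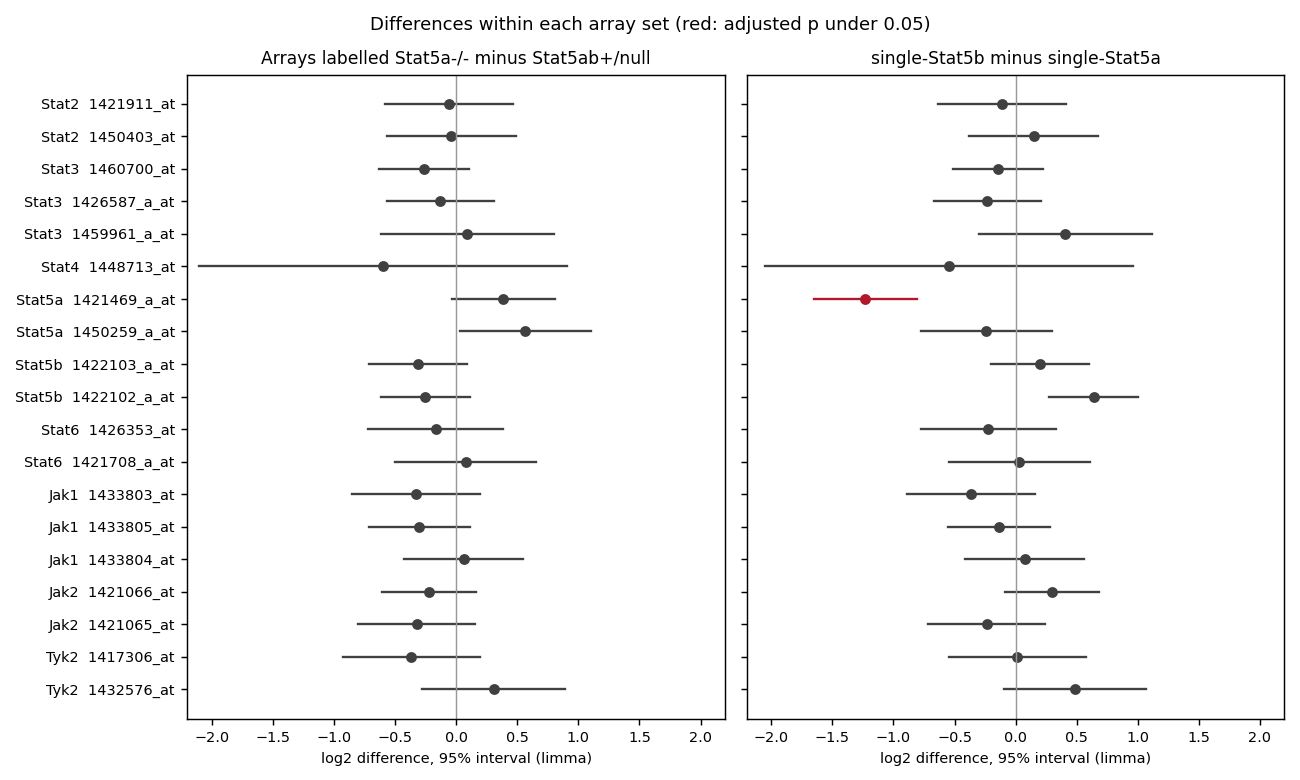
Log2 differences (horizontal axis) with 95% limma intervals for the 19 STAT and JAK probe sets past the filter, labelled Stat5a-/- minus Stat5ab+/null on the left and single-Stat5b minus single-Stat5a on the right. The one red point is Stat5a 1421469_a_at at -1.23, and the widest intervals belong to Stat4, from -2.10 to 0.90 and from -2.05 to 0.96.

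Stat4, which answers interleukin-12 in T and natural killer cells, had the widest intervals of the members. Its probe set 1448713_at read 5.39, 5.65 and 7.59 on the arrays labelled Stat5a-/- and 5.71, 8.53 and 6.19 on the Stat5ab+/null arrays. In the other set it read 6.93, 5.34 and 6.63 in single-Stat5b and 6.87, 6.78 and 6.89 in single-Stat5a. Single arrays thus set the spread: replicate 3 of the labelled Stat5a-/- mice and replicate 2 of the Stat5ab+/null mice were high, and replicate 2 of the single-Stat5b mice was low. The differences were -0.60 (-2.10 to 0.90) and -0.55 (-2.05 to 0.96), and neither passed (limma adjusted p of 0.856 or more). Without Stat5ab+/null replicate 2 the first of them was 0.26. The mean of 6 T and NK cell markers, of 8 listed, moved with Stat4. It was 6.56, 6.79 and 8.12 in labelled Stat5a-/- mice and 6.83, 9.42 and 7.16 in Stat5ab+/null mice, and 7.99, 7.01 and 7.43 in single-Stat5b and 7.45, 7.43 and 7.81 in single-Stat5a. As a description over arrays that share genotypes, r between Stat4 and this mean was 0.99 over the 6 arrays of the 2-allele set and 0.80 over the 6 single-allele arrays. The mean of 5 B cell markers stood at 11.79 on labelled Stat5a-/- replicate 3 and 12.14 on Stat5ab+/null replicate 2, against 6.37 to 9.40 on the other 2-allele arrays, and r between Stat4 and this mean was 0.95 over the 2-allele and 0.37 over the single-allele arrays. The mean of 6 muscle markers was high on the same arrays, at 9.77 on labelled Stat5a-/- replicate 3 and 8.69 on Stat5ab+/null replicate 2, against 6.12 to 6.31 on the other 2-allele arrays. The part of the lymphoid and muscle levels in the Stat4 values was not tested apart from the fit with B cell and muscle means as covariates, where the first difference was 0.022.

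**Figure D3:**
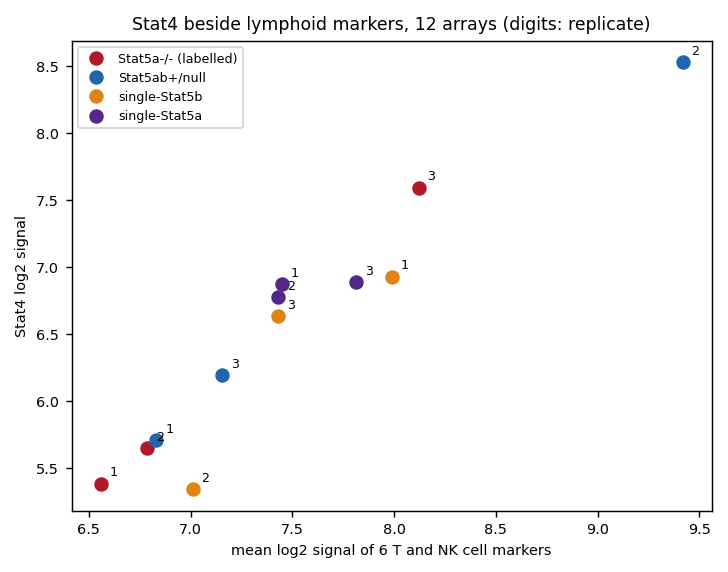
Log2 signal of Stat4 1448713_at (vertical axis) against the mean log2 signal of 6 T and NK cell markers (horizontal axis), 1 point per array, coloured by genotype, with the replicate number beside it. Stat5ab+/null replicate 2 (Stat4 8.53, markers 9.42) and labelled Stat5a-/- replicate 3 (7.59 and 8.12) lie at the upper right.

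Set beside each other, the single-allele and the 2-allele arrays gave different levels for many probe sets, members and others alike. Of the 19 member probe sets, 10 were lower on all 6 single-allele arrays than on all 6 of the 2-allele arrays, against 25.8% of all probe sets. Another 3 were higher, against 28.1%, while 6 overlapped. Over all 31526 probe sets, 14521 overlapped. Read from 1 probe set per gene, the brightest, 2 of the 9 member genes were lower, against 23.3% of 14198 genes, and 2 were higher, against 27.4%. The members' median single-allele minus 2-allele difference was -1.20, against 0.03 over all probe sets. Probe sets of 1 gene did not always go the same way. For Stat5a, 1421469_a_at averaged 11.60 on the single-allele arrays and 10.11 on the 2-allele arrays, a difference of 1.49, and 1450259_a_at averaged 5.17 and 8.66, a difference of -3.48. All 6 single-allele values of 1450259_a_at lay below the filter level, and it passed the filter only through the 2-allele arrays. For Jak2 the differences were 1.26 (1421066_at) and -2.01 (1421065_at), and for Jak1 they were 1.71 (1433804_at), -1.20 (1433803_at) and -2.21 (1433805_at). The probe sets of these 3 genes lay apart in opposite directions without overlap, for Stat5a with the low side below the filter level, which was so for 3 of the 8 member genes with at least 2 probe sets and for 24.9% of all 6836 such genes. Lower on the single-allele arrays with no probe set apart the other way were Stat3 (-2.59 and -2.28, and -1.18 for the one below the filter), Stat6 1421708_a_at (-2.22), Stat5b 1422102_a_at (-1.93), Stat2 1450403_at (-1.55) and Tyk2 1432576_at (-1.43). Each of these genes also had a probe set that overlapped between the sets, with differences of 1.07 for Stat3, -0.21 for Stat6, -0.21 for Stat5b, 0.04 for Stat2 and -0.03 for Tyk2. The overlap of Stat3 1459961_a_at came from single-Stat5a replicate 2 alone, at 9.24, against a 2-allele maximum of 9.27. Tyk2 1432576_at passed the filter only through the 2-allele arrays. Its mean was 7.14 there and 5.72, below the filter level, on the single-allele arrays. Stat4 overlapped at 0.06. The 3' minus 5' control signal given above moved with these differences, and its part in them was not tested.

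**Figure D4:**
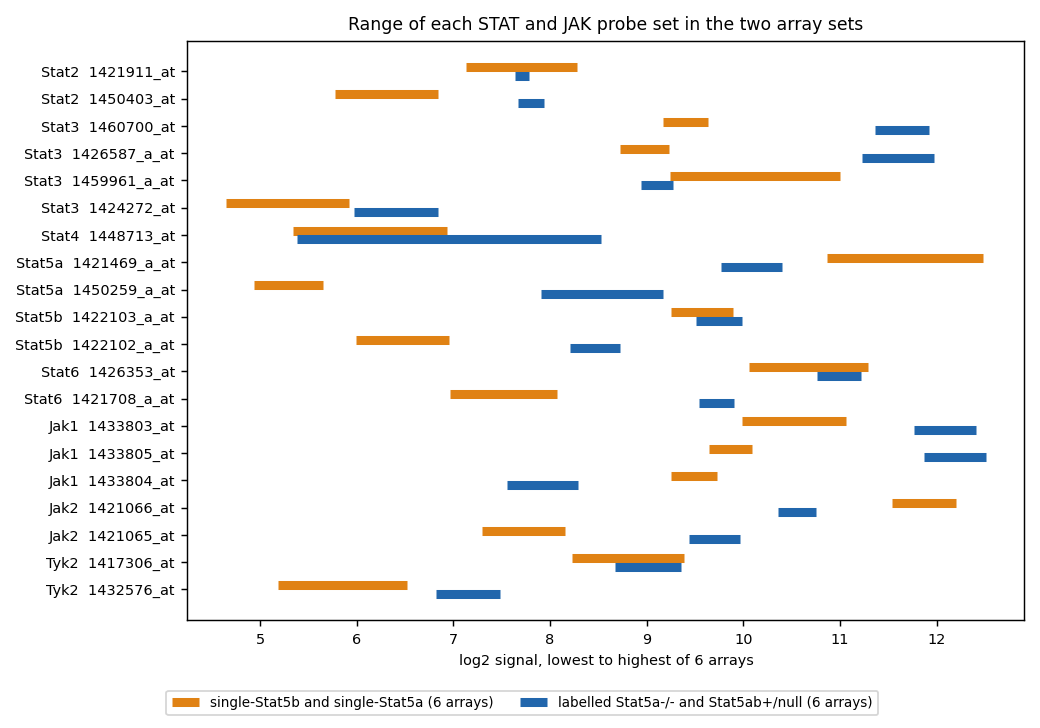
Range of the log2 signal (horizontal axis), lowest to highest of 6 arrays, for each of the 20 STAT and JAK probe sets on the single-allele arrays (orange) and the 2-allele arrays (blue). Bars of 1 gene part in opposite directions for Stat5a, Jak1 and Jak2, and overlap for 1 probe set each of Stat2, Stat3, Stat5b, Stat6 and Tyk2 and for Stat4.

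The other genes of the pathway were read from 4 lists, each gene from its brightest probe set past the filter. Measured were 26 of 34 cytokine receptors, 10 of 25 ligands, 18 of 18 inhibitors and 12 of 12 adaptors and STAT partners. None passed in either comparison or in their difference, where 0.00704%, 2.37% and 0.838% of all 14198 genes so read passed. At an unadjusted limma p under 0.05, the labelled Stat5a-/- comparison had 1 of 18 inhibitors, against 2.90% of all genes, and the single-allele comparison 2 of 26 receptors, 1 of 10 ligands and 1 of 12 adaptors, against 11.3% of all genes. Under the alternatives run, 6 list genes passed once each and are named for that, after their values were seen. Il4ra, a chain of the interleukin-4 and interleukin-13 receptors, passed between single-Stat5b and single-Stat5a without single-Stat5b replicate 3 (-0.996, limma adjusted p = 0.0392). Il15, an interleukin of lymphocyte growth, passed there without single-Stat5b replicate 2 (-0.77, adjusted p = 0.0496). Crlf2, the receptor chain of thymic stromal lymphopoietin, passed for the difference of the comparisons with array weights (0.90, adjusted p = 0.0490). The other 3 were Il7r, Ptpn1 and Nmi, given below. Between labelled Stat5a-/- and Stat5ab+/null the medians were -0.10 for receptors, -0.07 for ligands, -0.14 for inhibitors and -0.15 for adaptors, against -0.08 over all genes. Between single-Stat5b and single-Stat5a they were -0.05, -0.07, -0.00 and -0.14 in the same order, against -0.03 over all.

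Among receptors the largest difference belonged in both comparisons to Il7r, the interleukin-7 receptor chain of lymphocytes. It averaged 7.17 ± 1.07 in labelled Stat5a-/- and 7.63 ± 1.59 in Stat5ab+/null (SD, n = 3 each), a difference of -0.46 (-1.97 to 1.06). It averaged 10.07 ± 0.75 in single-Stat5b and 8.44 ± 0.52 in single-Stat5a, a difference of 1.63 (0.11 to 3.14) that did not pass (limma adjusted p = 0.369). It passed with the 4 arrays named above left out (1.95, adjusted p = 0.0377). Of the ligands, Il7 had the largest difference in the first comparison (-0.36, -0.97 to 0.24), and Lep, the adipocyte hormone leptin, in the second (-0.99, -2.28 to 0.30). Leptin is also 1 of the adipocyte markers, whose mean was 12.53 to 12.89 in single-Stat5b and 13.00 to 13.37 in single-Stat5a. Of the inhibitors, Ptpn1, a phosphatase that acts on Jak2 and Tyk2, differed most in the first comparison, with 10.50 ± 0.13 in labelled Stat5a-/- and 11.16 ± 0.08 in Stat5ab+/null (-0.66, -1.14 to -0.18, limma adjusted p = 1.00). With array weights it passed (-0.75, adjusted p = 0.0137). Cish, a Stat5 target that feeds back on the receptor, differed most in the second, with 9.21 ± 0.50 in single-Stat5b and 9.65 ± 0.41 in single-Stat5a (-0.44, -1.05 to 0.17). Of the adaptors, Grb2 differed by -0.39 (-0.92 to 0.13) in the first comparison, and Nmi, which binds STAT proteins, by -0.57 (-1.10 to -0.04, limma adjusted p = 0.373) in the second. Nmi passed without single-Stat5b replicate 3 (-0.84, adjusted p = 0.0373). For the difference of the comparisons the largest values were 2.08 for Il7r, -0.96 for Lep, 0.63 for Ptpn1 and -0.29 for Stam, and none passed.

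**Figure D5:**
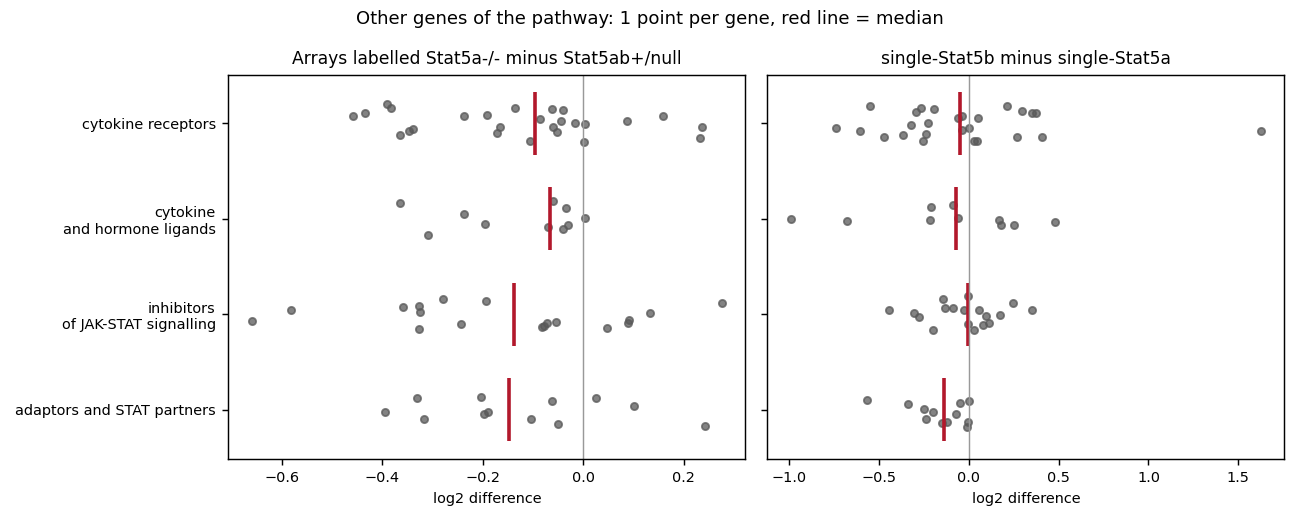
Log2 difference (horizontal axis) of each measured pathway gene outside the STAT and JAK families, 1 point per gene by list, labelled Stat5a-/- minus Stat5ab+/null on the left and single-Stat5b minus single-Stat5a on the right (the axes differ in range), with a red line at each list's median. The medians lie between -0.15 and -0.00, and the point farthest from 0 is Il7r at 1.63 on the right.

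The genes around the Stat5b, Stat5a and Stat3 block on chromosome 11 were read since they lie beside the deleted alleles. Beyond Stat5b, Rab5c differed by -0.20 (-0.58 to 0.17) between labelled Stat5a-/- and Stat5ab+/null and by -0.04 (-0.41 to 0.34) between single-Stat5b and single-Stat5a. Hcrt differed by 0.23 and 0.05, and Ghdc by -0.02 and -0.16. Beyond Stat3, Cavin1 differed by -0.02 and 0.07, Atp6v0a1 by -0.50 (-1.23 to 0.22) and -0.04, and Naglu by -0.27 and -0.04. None of these 6 neighbours passed in either comparison. Hspb9 was below the filter, and Kcnh4, Gm46295 and Mir6928 were not analysed here.

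For each member the genes with the most similar pattern were taken as the highest Pearson r between brightest probe sets over the 12 arrays, after the mean of each array set was subtracted. These are descriptions over arrays that share genotypes and tissue make-up. Stat5a 1421469_a_at ran closest to Ang (r = 0.93) and Myrf (0.93), and Stat5b to Polr1a (0.94) and Ccdc85b (0.94). Stat4 ran closest to Cd40 (0.98) and Btk (0.97), which are B cell genes. Stat2 ran closest to Rabac1 (0.98) and Naca (0.97), Stat6 to Tmem106a (0.97) and Rit1 (0.97), and Stat3 to Vsig10 (0.92) and Itpripl2 (0.91). Of the kinases, Jak1 ran closest to Rbm42 and Wdr91 (both 0.97), Jak2 to Rabl3 (0.94) and Smg1 (0.92), and Tyk2 to Safb2 (0.96) and Map2k2 (0.95).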

How the data were processed

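The authors deposited log2 signals per probe set, 1 column per array. RMA and Partek are the tools in the submitters' processing notes, without version or settings. RNA was extracted with Trizol and labelled with biotin, per the labels' protocols. Genotypes and intact allele numbers were taken from the labels, and replicate numbers follow the record order. The samples are separate mice, and litters or batches are not named, so p-values measure only the spread between these samples.

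Probe sets were named through the platform's annotation: 34945 had 1 gene, 932 had several and 9160 had none, and 64 were controls. Those with a mean below the 30th percentile were left out. Differences came from limma 3.58.1 (R 4.3.3; 4 genotype means, 12 arrays, moderated 2-sided test, Benjamini-Hochberg over 31526 probe sets, call at 0.05), after a test on simulated data. The comparison of array sets was not tested. The members and the 12 lists (134 genes, 4 pathway and 8 marker lists) were chosen with earlier results of these data known. The genes named were each member probe set, the gene of each pathway list with the largest difference where none was called, the 5 nearest genes on each side of the Stat5b to Stat3 block, and the 2 genes most similar to each member. Marker lists are given as means. Alternatives tried were quantile normalization, centring on the array median, no filter or one at the 50th percentile, 1 probe set per gene, trended and robust variance, no moderation, array weights, only the groups compared, an adjusted p under 0.01, B cell and muscle means as covariates, 4 arrays left out together, each array left out and, chosen after seeing the data, the labels of the 2-allele groups exchanged. Promoter windows are RefSeq's (GRCm38.p6). No build is named for the array annotation, so probe sets have no coordinates here.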

Additional observations from a re-analysis of the deposited data

Results flagged for a closer look

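The change of Stat5a 1421469_a_at differed between the array sets. Single-Stat5b minus single-Stat5a was -1.23 and labelled Stat5a-/- minus Stat5ab+/null was 0.39, and the difference of these differences was -1.62 (limma adjusted p = 0.00980). All 3 single-Stat5b arrays lay below all 3 single-Stat5a arrays, and all 3 arrays labelled Stat5a-/- lay above all 3 Stat5ab+/null arrays. The second Stat5a probe set differed by -0.81 on the same measure and did not pass (adjusted p = 0.611). All 6 of its single-allele values, 4.94 to 5.65, lay below the filter level of 6.04. The Stat5a and Stat5b levels of the 2-allele pair ran against its labels. With those labels exchanged, an alternative chosen after seeing the data, the value for 1421469_a_at was -0.85 and did not pass (limma adjusted p = 0.267).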

How the results depend on the processing

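The Stat5a call between single-Stat5b and single-Stat5a passed under every alternative run. Counts of probe sets called moved more. Between labelled Stat5a-/- and Stat5ab+/null the count was 3, and it was 1 with 1 probe set per gene, 430 with array weights, 0 with no moderation, an adjusted p under 0.01, the covariates or 4 arrays left out, and 0 to 6 without each array in turn (0 without labelled Stat5a-/- replicate 2 or Stat5ab+/null replicate 1 or 2, 1 without Stat5ab+/null replicate 3, 5 without labelled Stat5a-/- replicate 1 or single-Stat5a replicate 2, and 6 without labelled Stat5a-/- replicate 3). No member passed in any of these. Between single-Stat5b and single-Stat5a the count was 912, and it was 534 with the 50th percentile filter, 310 with 1 probe set per gene, 478 in a fit of these groups alone, 540 at an adjusted p under 0.01, 565 with the covariates, and 668 to 2015 without each array in turn (the highest without single-Stat5b replicate 3). Members called there were 1, and 2 with no moderation, and 1 to 2 without each array in turn. For the difference of the comparisons the count was 345, and it was 202 with the 50th percentile filter, 110 with 1 probe set per gene, 214 with no moderation, 1018 with array weights, 197 at an adjusted p under 0.01, 206 with the covariates, 218 with 4 arrays left out, and 228 (without labelled Stat5a-/- replicate 2) to 521 (without single-Stat5b replicate 2) without each array in turn. Members called there were 1, but 2 with array weights (Stat5b 1422102_a_at at 0.90, adjusted p = 0.0281, beside Stat5a) and 0 with the covariates, with 4 arrays left out, and with the labels of the 2-allele groups exchanged, an alternative chosen after seeing the data (Stat5a 1421469_a_at at -0.85, adjusted p = 0.267). With that exchange Stat5a 1450259_a_at turned to 0.32 and Stat5b 1422103_a_at to -0.11, neither of them called. Fewer genes or samples enter the fit with 1 probe set per gene, the 50th percentile filter and arrays left out. The cause of the moves in these counts was not tested under any alternative. Of the members apart between the array sets, 2 of 9 genes rather than 10 of 19 probe sets were lower with 1 probe set per gene (23.3% of all genes so read), and 5 rather than 3 were higher with 4 arrays left out. With arrays left out such a count can only stay or rise, for members and for all probe sets alike. The share over all probe sets with those 4 arrays left out is not given here, so the rise is not read as a trait of the members.

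Some uncalled differences turned sign. Between labelled Stat5a-/- and Stat5ab+/null this held for Stat2 1450403_at (0.0089 with quantile normalization, 0.042 with array weights, 0.030 with 4 arrays left out, -0.10 to 0.023 without each array), Jak1 1433804_at (-0.11 with array weights, -0.020 with the covariates, -0.17 to 0.21 without each array), Stat6 1421708_a_at (-0.25 with the covariates, -0.0069 to 0.17 without each array), Stat4 (0.022 with the covariates, -1.29 to 0.26 without each array), Il7r (0.12 and -1.02 to 0.46 likewise), Stat3 1426587_a_at (-0.27 to 0.033 without each array), Ghdc (0.057 with quantile normalization, 0.013 with centring, 0.17 with array weights, 0.017 with 4 arrays left out, -0.15 to 0.079 without each array) and Cavin1 (0.0083 with centring, 0.022 with array weights, -0.12 to 0.084 without each array). Between single-Stat5b and single-Stat5a it held with array weights for Stat2 1450403_at (-0.30), Stat6 1421708_a_at (-0.19) and Atp6v0a1 (0.23). With the covariates it held for Stat2 1421911_at (0.16), Stat3 1459961_a_at (-0.31), Stat6 1426353_at (0.081), Ghdc (0.14), Atp6v0a1 (0.35) and Naglu (0.23), and with 4 arrays left out for Stat6 1426353_at (0.12), Ghdc (0.14), Atp6v0a1 (0.64) and Naglu (0.38). Without each array in turn the ranges there were -0.40 to 0.18 for Stat2 1421911_at, -0.11 to 0.42 for Stat2 1450403_at, -0.20 to 0.38 for Tyk2 1417306_at, -0.26 to 0.21 for Stat6 1421708_a_at, -0.55 to 0.068 for Stat6 1426353_at, -0.020 to 0.22 for Jak1 1433804_at, -0.13 to 0.077 for Rab5c, -0.11 to 0.22 for Cavin1, -0.38 to 0.42 for Atp6v0a1, -0.13 to 0.17 for Hcrt, -0.39 to 0.0060 for Ghdc and -0.43 to 0.35 for Naglu. The cause was not tested. No paired analysis was possible because the replicate numbers follow the order of the records and pair no samples. A fit of only the groups compared gave no value for the difference of the comparisons, and signal over background per probe was not given in the values used, so low levels such as those of Stat4 are limited by the arrays' number and by signals near the filter level.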
